A study of Homo sapiens with 12 samples.

Results

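The genes described here are 10 members of the BCL2 family: BCL2, BCL2A1, MCL1 and BCL2L1 (survival genes), BCL2L11, BMF, PMAIP1 and BBC3 (BH3-only genes), and BAX and BAK1 (effectors). They were taken by name from the count tables of the series, where they are 10 of 57500 genes, and all 10 passed the filter on low counts that left 16402 genes for testing. The libraries are poly(A)-selected RNA sequencing of THP-1, a monocytic leukaemia line of human origin, here carrying a lentiviral non-target shRNA in every group. Cells were held in buffered medium for 4 h at 10% CO2 (hypercapnia) or 5% CO2 (normocapnia). Lipopolysaccharide (LPS), a bacterial product that activates TLR4, was present at 2.5 µg/ml for the last 2 h in some groups. The 4 groups were 10% CO2 with LPS, 5% CO2 with LPS, 10% CO2 and 5% CO2, with 3 libraries each. The study asked what buffered hypercapnia does to transcription in monocytes at rest and after LPS. All libraries come from 1 transduced line, and nothing in the labels says that the 3 libraries of a group came from different cultures. The p-values therefore rest on the spread between libraries alone, and that spread may be technical.

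BCL2 family proteins decide whether the outer mitochondrial membrane is opened. The survival proteins hold the effectors BAX and BAK in check, and BH3-only proteins release that hold by binding the survival proteins or by activating the effectors directly. Once BAX or BAK forms pores, cytochrome c leaves the mitochondrion and the caspase cascade starts. BCL2A1 is known as a target of NF-κB in myeloid cells, and MCL1 is a short-lived protein on which many myeloid cells depend.

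Each library held between 17.1 and 22.2 M counted reads. Of the 12 listed monocyte and THP-1 markers all 12 passed the filter, with a summed level of 2070 to 2964 CPM (read counts scaled to library size, with TMM factors) over the libraries. ELANE was the largest part of that sum, with a mean of 1274 CPM at 5% CO2 with LPS. In the same group CD14 averaged 8.42 CPM, MPO 4.14 CPM and CD68 1.74 CPM, so the sum does not stand for each marker. The markers of T cells, epithelium and erythroid cells stayed under 1.2 CPM in sum in every library, and those of B cells and fibroblasts at or under 5.61 and 3.74 CPM. Mitochondrial transcripts made up 2.28 to 4.15% of counts at 10% CO2 with LPS, against 1.28 to 1.78% at 5% CO2 with LPS. Without LPS the shares were 2.01 to 3.05% at 10% CO2 and 1.31 to 1.96% at 5% CO2. This share moved with CO2 in the same libraries as every CO2 difference below, and its part in them was not tested.

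The DNA before the RefSeq starts of some members that moved is shown first. It sets side by side the sequences of genes called as higher with LPS at 10% CO2. BMF, among them, was not called for LPS at 5% CO2 (adjusted p = 0.765). RefSeq (GRCh38.p14) gave a start for 9 of the 10 members. MCL1 was not among them. BMF and BCL2L1 each had a further start. A script searched the 250 bases before each start, on both strands, for the TATA box (TATAAA), the CCAAT box (CCAAT), the GC box (GGGCGG), the FOXO core (GTAAACA), a CRE core (TGACGT), the E-box (CACGTG), an AP-1 site (TGANTCA) and the κB consensus. Overlapping matches were kept. The 250 bases before the RefSeq start of BCL2L11, the gene for the BH3-only protein BIM, are GC-rich (76.8% G or C, 34 CpG) and lie at chr2:111120664-111120913 on the plus strand, within the files' gene span and with 0 of its exon bases. Capitals mark the FOXO core near the 5′ end, 3 GC boxes and a CCAAT box read on the other strand.
BCL2L11: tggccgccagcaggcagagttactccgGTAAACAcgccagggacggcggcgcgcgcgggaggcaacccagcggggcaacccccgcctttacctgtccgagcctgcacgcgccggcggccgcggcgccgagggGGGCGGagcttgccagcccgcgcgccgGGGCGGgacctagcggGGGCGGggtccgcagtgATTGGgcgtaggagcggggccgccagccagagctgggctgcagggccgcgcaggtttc

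The FOXO core occurs in 2.98% of the 35116 upstream regions of that length. For BCL2A1, PMAIP1, BMF and BBC3, 30 bases around a chosen match are given on the gene's own strand, with the match in capitals. Other matches in these windows are not printed. PMAIP1 also has GC boxes, BMF a CCAAT box and a GC box, and BBC3 a CCAAT box and an E-box. BCL2L1 and BAK1 also moved and are not shown. The first has TATA boxes, and BAK1 a CCAAT box and GC boxes. BCL2A1 has a TATA box at chr15:79971249-79971278 (minus strand) in a window with 38.8% G or C and 2 CpG, and all 250 bases of that window are exon bases in the files' annotation. Of the other 3 windows, that of PMAIP1 holds 48 such bases, that of BMF 13 and that of BBC3 99. PMAIP1 has a CRE core at chr18:59899928-59899957 (plus strand), BMF a κB match at chr15:40108880-40108909 (minus strand) and BBC3 an AP-1 site at chr19:47232762-47232791 (minus strand). The window before the further BMF start, at chr15:40106967-40107216, held no match to any listed motif.
BCL2A1: gaggaaggatatTATAAAgtgatgcaaaca
PMAIP1: tctagtttccctACGTCAccagggaagttc
BMF: agctgtttgcGGGATGCCCCgagcaggcgt
BBC3: gcactggaaggTGAGTCActctggtgaggc
TATA boxes were found in 10.7% of all upstream regions, CRE cores in 7.10%, κB matches in 5.21% and AP-1 sites in 6.57%. These are matches of letters and not measured sites. The BCL2A1 window held no κB match, which says only that those letters are not in these 250 bases.

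LPS raised BCL2A1 more than any other member and raised MCL1 about 2-fold, while BCL2 did not pass the test at either CO2 level. BCL2A1 (ENSG00000140379, GRCh38 chromosome 15, 79960889 to 79971446), whose protein binds BIM and NOXA and holds back the effectors, had 99.3, 103 and 78.1 CPM at 10% CO2 with LPS, against 2.69, 1.98 and 2.69 CPM at 10% CO2. At 5% CO2 with LPS it had 87.2, 61.4 and 77.4 CPM, against 3.16, 3.09 and 2.23 CPM at 5% CO2. Every library with LPS lay far above every library without, where the gene had only 39 to 70 reads. The log2 change was 5.24 ± 0.18 at 10% CO2 (SE of the fit, 37.7-fold, adjusted p = 5.5e-14) and 4.74 ± 0.18 at 5% CO2 (26.7-fold, adjusted p = 2.48e-13). Adjusted p is the Benjamini-Hochberg value over all 16402 genes from edgeR's quasi-likelihood test, and a gene was called under 0.05. In bulk RNA, more cells that express a gene and more of its RNA per cell cannot be told apart.

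MCL1 (chromosome 1, 150574551 to 150579738) was the most abundant member per unit length in all 4 groups. It had 857, 773 and 736 CPM at 10% CO2 with LPS, against 445, 358 and 367 CPM at 10% CO2. At 5% CO2 with LPS the values were 937, 854 and 747 CPM, against 482, 436 and 417 CPM at 5% CO2. The groups with and without LPS did not overlap, and the log2 changes were 1.02 ± 0.10 (2.02-fold, adjusted p = 1.67e-07) and 0.93 ± 0.10 (1.90-fold, adjusted p = 8.57e-07) at 10% and 5% CO2. BCL2L1 (chromosome 20, 31664452 to 31723989), the gene for BCL-XL, was called for LPS at 10% CO2, with 35.1, 42.1 and 35.0 CPM at 10% CO2 with LPS, against 26.3, 24.5 and 29.7 CPM at 10% CO2 (log2 change 0.48 ± 0.12, adjusted p = 0.00346). At 5% CO2 its LPS change was 0.05 ± 0.12 (adjusted p = 0.792). The difference between those 2 LPS changes was 0.42 ± 0.17 and did not pass (adjusted p = 0.735), so an LPS response of BCL2L1 that differs with CO2 is not shown. The antisense gene ABALON shares 43.0% of the exon bases of BCL2L1, and since the strand setting of the counting is not given, reads in that stretch cannot be assigned with certainty. ABALON itself had 9 to 38 reads per library, against 484 to 734 for BCL2L1. BCL2 (chromosome 18, 63123346 to 63320128), the founding survival gene, averaged 133 ± 12.6 CPM at 10% CO2 with LPS, against 138 ± 20.1 CPM at 10% CO2, and 128 ± 18.4 CPM at 5% CO2 with LPS, against 138 ± 1.44 CPM at 5% CO2 (SD, n = 3). Its groups overlapped in all 4 comparisons.

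**Figure D1:**
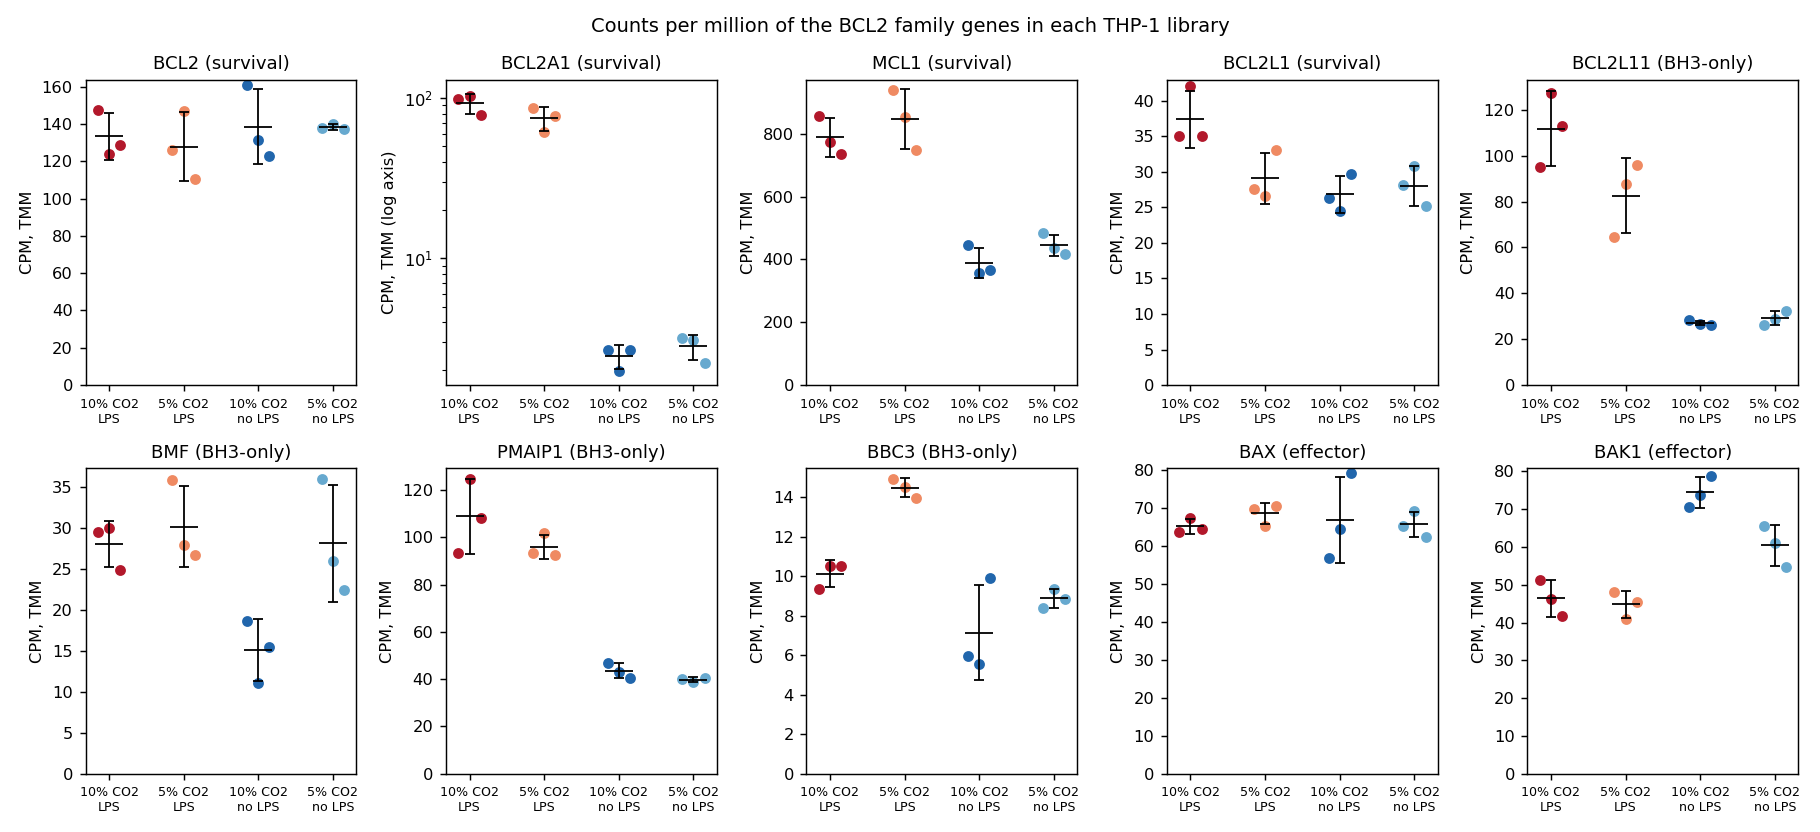
Level (CPM, TMM-scaled) of each member in every library, by group, with the mean as a bar and the SD as whiskers (n = 3); the axis of BCL2A1 is logarithmic and the others start at 0. BCL2A1, MCL1, BCL2L11 and PMAIP1 lie higher in all LPS libraries at both CO2 levels, BAK1 lies lower, and BMF is lowest at 10% CO2 without LPS, at 11.1 to 18.7 CPM.

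LPS raised BH3-only genes as well as survival genes. BCL2L11 (chromosome 2, 111119378 to 111168447) had 95.0, 127 and 113 CPM at 10% CO2 with LPS, against 28.1, 26.6 and 26.3 CPM at 10% CO2. It had 64.4, 87.6 and 95.9 CPM at 5% CO2 with LPS, against 26.1, 28.996 and 32.2 CPM at 5% CO2. All LPS libraries were above all others, with log2 changes of 2.05 ± 0.14 at 10% CO2 (4.14-fold, adjusted p = 1.44e-09) and 1.51 ± 0.14 at 5% CO2 (2.84-fold, adjusted p = 1.23e-07). PMAIP1 (chromosome 18, 59899948 to 59904306) encodes NOXA, which binds MCL1 and BCL2A1. Its values were 93.4, 125 and 108 CPM at 10% CO2 with LPS, against 47.1, 43.2 and 40.6 CPM at 10% CO2, and 93.4, 102 and 92.6 CPM at 5% CO2 with LPS, against 39.9, 38.8 and 40.7 CPM at 5% CO2. The groups were again apart, and the LPS changes were of like size at both CO2 levels, 1.32 ± 0.10 at 10% CO2 (adjusted p = 5.41e-09) and 1.27 ± 0.10 at 5% CO2 (adjusted p = 1.31e-08), with a difference of 0.05 ± 0.14 on the log2 scale.

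BBC3 and BMF gave smaller LPS changes. BBC3 (chromosome 19, 47220822 to 47232766), the gene for PUMA, had 9.34, 10.5 and 10.5 CPM at 10% CO2 with LPS, against 5.97, 5.58 and 9.89 CPM at 10% CO2. At 5% CO2 with LPS it had 14.9, 14.5 and 13.97 CPM, against 8.40, 9.37 and 8.87 CPM at 5% CO2. The LPS groups were apart at 5% CO2 and overlapped at 10% CO2, where replicate 3 without LPS was high. The log2 change was 0.50 ± 0.17 at 10% CO2 (adjusted p = 0.0303) and 0.71 ± 0.17 at 5% CO2 (adjusted p = 0.00366). At 10% CO2 this call of BBC3 was lost without replicate 1 or 2 of 10% CO2, without replicate 2 or 3 of 10% CO2 with LPS (adjusted p = 0.0775 to 0.155), and in a fit of the compared groups alone (adjusted p = 0.0542). BMF (chromosome 15, 40087890 to 40108892), whose protein is tethered to the cytoskeleton and freed by stress, rose with LPS at 10% CO2, with 29.4, 29.95 and 24.8 CPM at 10% CO2 with LPS, against 18.7, 11.1 and 15.5 CPM at 10% CO2 (log2 change 0.89 ± 0.20, adjusted p = 0.00267). At 5% CO2 it had 35.8, 27.9 and 26.7 CPM with LPS, against 36.01, 25.9 and 22.4 CPM without, with a change of 0.10 ± 0.19 (adjusted p = 0.765). All 3 libraries of 10% CO2 without LPS were lower than all 9 others. The difference between the 2 LPS changes, 0.79 ± 0.27, did not pass over all genes (adjusted p = 0.680), though with no filter on low counts it did (0.76, adjusted p = 0.00786).

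Of the 2 effectors, BAK1 fell with LPS and BAX did not pass. BAK1 (chromosome 6, 33572547 to 33580293), a pore-forming protein that sits in the outer membrane, had 51.3, 46.2 and 41.7 CPM at 10% CO2 with LPS, against 70.7, 73.7 and 78.9 CPM at 10% CO2. The values were 48.1, 40.9 and 45.5 CPM at 5% CO2 with LPS, against 65.6, 61.02 and 54.7 CPM at 5% CO2. Each LPS library lay below each library without LPS, with changes of −0.68 ± 0.10 at 10% CO2 (adjusted p = 2.86e-05) and −0.43 ± 0.10 at 5% CO2 (adjusted p = 0.00358). BAX (chromosome 19, 48954815 to 48961798), which moves to the membrane on activation, averaged 65.2 ± 1.89 CPM at 10% CO2 with LPS, against 66.8 ± 11.4 CPM at 10% CO2, and 68.6 ± 2.89 CPM at 5% CO2 with LPS, against 65.7 ± 3.39 CPM at 5% CO2 (SD, n = 3). Its LPS changes were −0.04 ± 0.10 (adjusted p = 0.818) and 0.06 ± 0.10 (adjusted p = 0.722), the first of which turned to 0.15 after a correction for GC content (adjusted p = 0.11). In all, LPS changed 8 of the 10 members at 10% CO2, 7 higher and 1 lower, where the background was 35.2% of all tested genes called, 16.6% higher and 18.6% lower. At 5% CO2 it changed 6 members, 5 higher and 1 lower, with 24.9% of all genes called, 11.8% higher and 13.1% lower. The groups did not overlap for 7 and 6 members, against 46.1% and 39.2% of all genes. The members' median log2 changes were 0.69 and 0.40, against −0.02 and −0.01 over all genes. The members were chosen with earlier results of these data known, so these counts and medians are a description only. Both LPS comparisons have libraries of their own, whereas each LPS group also enters a CO2 comparison below.

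**Figure D2:**
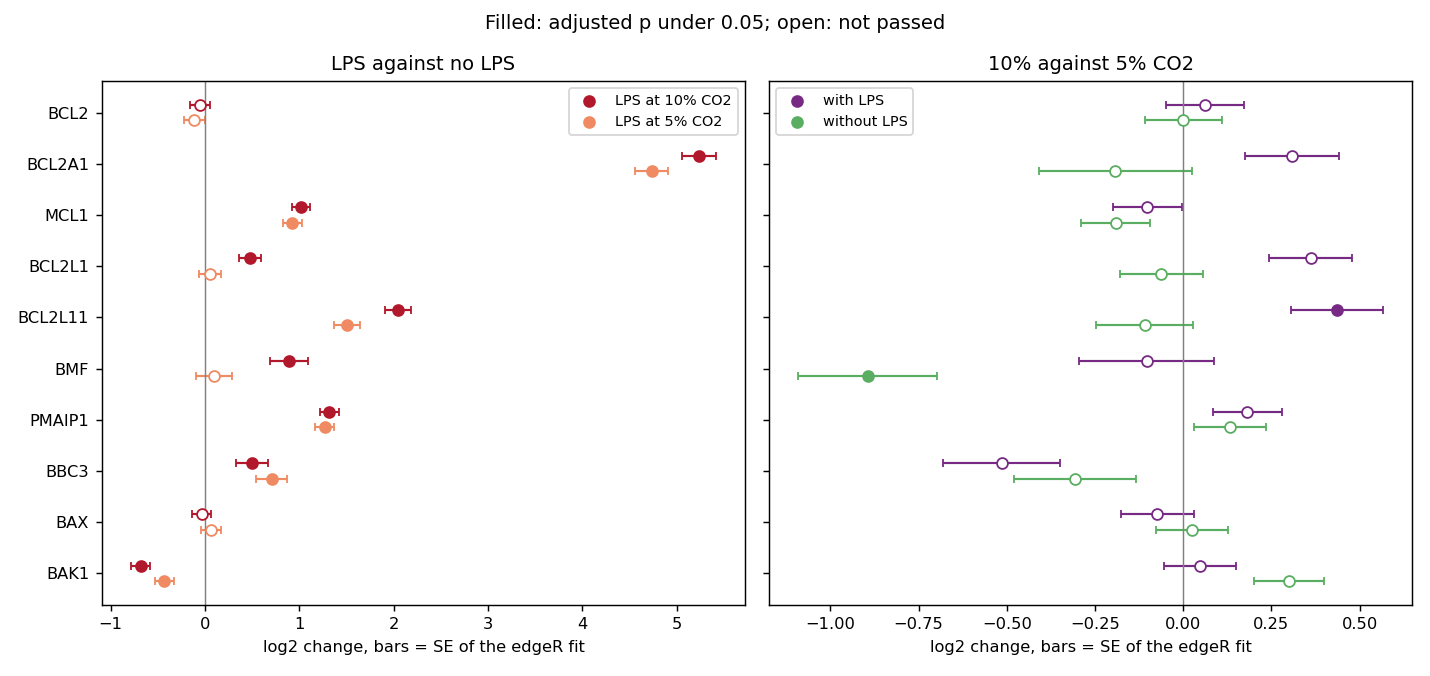
Log2 change of each member for LPS against no LPS (left, at 10% and 5% CO2) and for 10% against 5% CO2 (right, with and without LPS); whiskers are the SE of the edgeR fit, filled points passed an adjusted p of 0.05 and open points did not. The LPS changes reach 5.24 for BCL2A1, and the CO2 changes lie between −0.89 for BMF without LPS and 0.44 for BCL2L11 with LPS.

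Without LPS, 10% CO2 lowered BMF and no other member passed. The 18.7, 11.1 and 15.5 CPM of BMF at 10% CO2 stood against 36.01, 25.9 and 22.4 CPM at 5% CO2, with no overlap (log2 change −0.89 ± 0.20, adjusted p = 0.0422). This is 1 of 10 members, with 1.46% of all genes called, 0.799% higher and 0.665% lower. The call of BMF was lost without replicate 1 of 5% CO2 (adjusted p = 0.143), its replicate 2 (0.0873), replicate 2 of 10% CO2 (0.181) or its replicate 3 (0.0917), without replicate 1 or 3 of 10% CO2 with LPS (0.0516 and 0.0555), and in a fit of the compared groups alone (0.0653). Its log2 change over those fits ran from −0.95 to −0.67. BAK1 was the other member whose groups did not overlap (20.7% of all genes), with 70.7 to 78.9 CPM at 10% CO2, against 54.7 to 65.6 CPM at 5% CO2. Its change of 0.30 ± 0.10 did not pass (adjusted p = 0.126) but did with GC content corrected, without (0.35, adjusted p = 0.0239) or with (0.35, 0.00365) the replicate number as a block. BBC3 had a change of −0.31 ± 0.17 (adjusted p = 0.371), which became −0.62 with adjusted p = 0.0355 without replicate 3 of 10% CO2, the library in which the gene stood at 9.89 CPM. Among the survival genes MCL1 had −0.19 ± 0.10 (adjusted p = 0.330), BCL2A1 −0.19 ± 0.22 (0.685), BCL2L1 −0.06 ± 0.12 (0.832) and BCL2 0.00056 ± 0.11 (0.999). PMAIP1 had 0.13 ± 0.10 (adjusted p = 0.529), BCL2L11 −0.11 ± 0.14 (0.726) and BAX 0.03 ± 0.10 (0.933).

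With LPS, 10% CO2 was called for another BH3-only gene, BCL2L11, and 2 more members lay close to the threshold. BCL2L11 had 95.0, 127 and 113 CPM at 10% CO2 with LPS, against 64.4, 87.6 and 95.9 CPM at 5% CO2 with LPS (log2 change 0.44 ± 0.13, adjusted p = 0.0450). The lowest library at 10% CO2 was just under the highest at 5% CO2, so the groups overlapped. This is again 1 of 10 members, with 8.75% of all genes called, 4.29% higher and 4.46% lower. The call was lost with GC content corrected (0.0560), in a fit of the compared groups alone (0.130) and without any of 8 libraries: replicate 2 of 5% CO2, replicates 1 and 2 of 5% CO2 with LPS, all 3 of 10% CO2, and replicates 2 and 3 of 10% CO2 with LPS (adjusted p = 0.0550 to 0.218, log2 change 0.29 to 0.49). BBC3 had 9.34, 10.5 and 10.5 CPM at 10% CO2 with LPS, against 14.9, 14.5 and 13.97 CPM at 5% CO2 with LPS, with no overlap and a spread of under 0.7 CPM in each group (SD 0.674 and 0.473). Its change of −0.51 ± 0.17 missed the threshold (adjusted p = 0.0591) and passed in 5 other settings: by DESeq2 (0.0325), with no filter on low counts (0.0157), with only the compared groups (0.0196), and with the replicate number as a block without (0.0363) or with (0.0478) the GC correction. It also passed without replicate 1 or 3 of 10% CO2 (adjusted p = 0.0446 and 0.0118). With the GC correction alone it was −0.35 (adjusted p = 0.107). BBC3 has the highest GC content of the members, 64.4% of its exon bases, against 40.4% for PMAIP1, the lowest. BCL2L1 had 35.1, 42.1 and 35.0 CPM at 10% CO2 with LPS, against 27.6, 26.6 and 33.2 CPM at 5% CO2 with LPS, also with no overlap (31.4% of all genes). Its change of 0.36 ± 0.12 (adjusted p = 0.0604) passed by DESeq2 (0.0338), with GC content corrected (0.49, 0.00778), with the block as well (0.49, 0.00357), and without replicate 3 of 5% CO2 with LPS (0.0247) or of 10% CO2 (0.0470). BCL2A1 had 78.1 to 103 CPM at 10% CO2 with LPS, against 61.4 to 87.2 CPM at 5% CO2 with LPS, and its 0.31 ± 0.13 did not pass (adjusted p = 0.161). The other 5 changes lay between −0.10 for BMF and 0.18 for PMAIP1 (adjusted p = 0.264 to 0.816), and that of BMF turned to 0.0052 after the GC correction. The monocyte markers summed to 2070 to 2172 CPM at 10% CO2 with LPS, against 2326 to 2462 CPM at 5% CO2 with LPS, and their part in these changes was not tested.

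**Figure D3:**
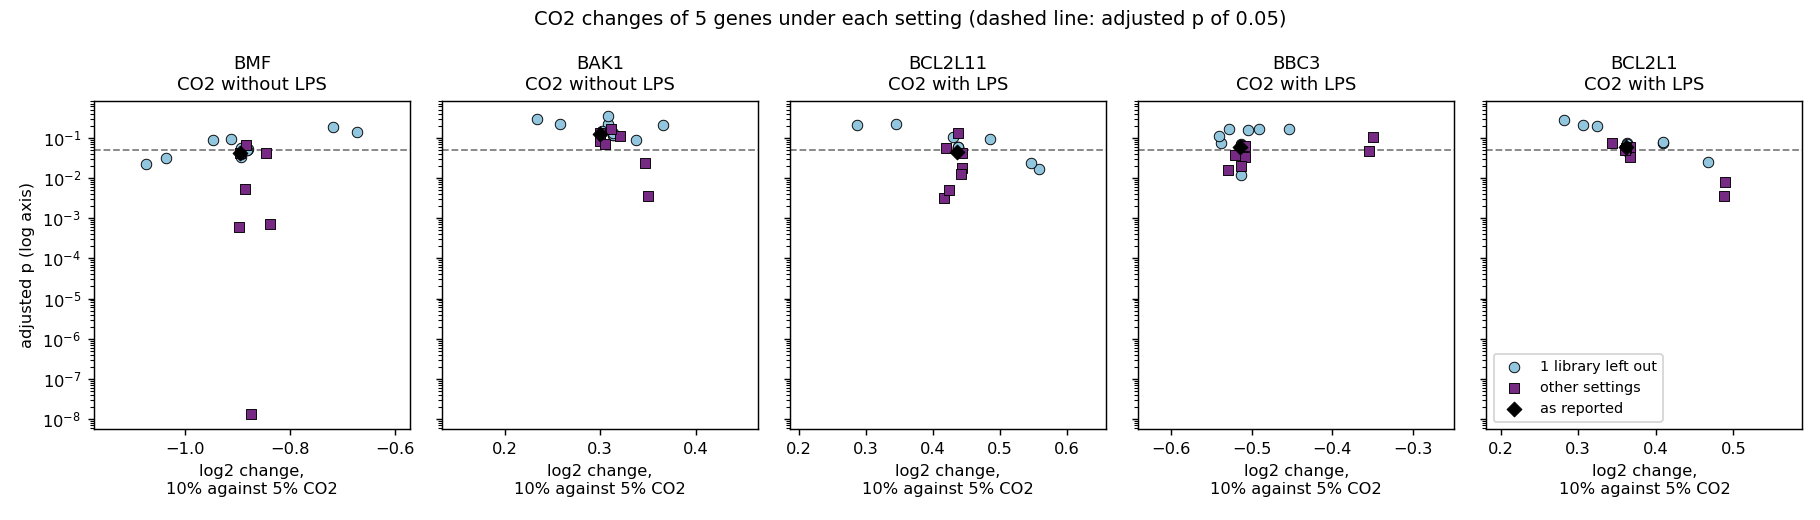
Log2 change (x axis) and adjusted p (y axis, logarithmic) of 5 members for 10% against 5% CO2, as reported (diamond), in the other settings (squares) and with 1 library left out (circles); the dashed line is an adjusted p of 0.05. All 5 keep their sign throughout, and in each of them the points lie on both sides of the line.

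Averaged over LPS, 2 of the 10 members were called, both lower at 10% CO2. Of all genes 16.8% were called, 8.06% higher and 8.69% lower. BMF had −0.50 ± 0.14 (adjusted p = 0.0234) and BBC3 −0.41 ± 0.12 (adjusted p = 0.0246). BMF lost this call with GC content corrected (−0.42, 0.0640) and without replicate 1 of 5% CO2 with LPS, replicate 3 of 10% CO2 or replicate 3 of 10% CO2 with LPS (adjusted p = 0.0535 to 0.0568). BBC3 lost it without replicate 2 of 5% CO2, or replicate 1 or 2 of any of the other 3 groups (adjusted p = 0.0528 to 0.0784). The other BH3-only genes did not pass and lay higher at 10% CO2, BCL2L11 by 0.16 ± 0.09 (adjusted p = 0.251) and PMAIP1 by 0.16 ± 0.07 (adjusted p = 0.136). After the GC correction BAK1 (0.27, adjusted p = 0.00412) and BCL2L1 (0.24, adjusted p = 0.0303) were called as higher at 10% CO2. MCL1 was called as lower without replicate 1 of 10% CO2 (−0.20, adjusted p = 0.0437) and with the replicate block (−0.15, adjusted p = 0.0321), and PMAIP1 as higher without replicate 1 of 10% CO2 with LPS (0.22, adjusted p = 0.0398). For the interaction of LPS and CO2, edgeR called 0 members and DESeq2 0, with 3 under an unadjusted p of 0.05 (BMF, BCL2L11 and BCL2L1), where 0.0244% of all genes were called. The interaction of BCL2L11 was 0.54 ± 0.19 (adjusted p = 0.661) and that of BCL2A1 0.50 ± 0.25 (adjusted p = 0.845).

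The order of the members by level per kilobase of exon changed with LPS. At 10% CO2 with LPS the means were 180 CPM per kb for MCL1, 85.7 for BCL2A1, 48.7 for PMAIP1, 25.2 for BAX, 21.0 for BAK1, 16.8 for BCL2L11, 11.3 for BCL2 and for BCL2L1, 5.15 for BMF and 3.18 for BBC3. At 10% CO2 they were 89.2 for MCL1, 33.7 for BAK1, 25.8 for BAX, 19.5 for PMAIP1, 11.8 for BCL2, 8.10 for BCL2L1, 4.05 for BCL2L11, 2.77 for BMF and 2.25 for BCL2A1 and for BBC3. With LPS, BCL2A1 was second in the order at both CO2 levels. Without it, the gene was in the last 2 places at both. Neighbours that overlapped were BAK1 with BCL2L11 and BCL2 with BCL2L1 at 10% CO2 with LPS. At 5% CO2 with LPS they were BCL2L11 with BCL2 and BCL2 with BCL2L1. At 10% CO2 they were BMF with BCL2A1 and BCL2A1 with BBC3. At 5% CO2 they were BAK1 with BAX, BMF with BCL2L11 and BBC3 with BCL2A1. The order depends on the scale. By CPM, BCL2A1 was in place 5 with LPS (93.3 CPM at 10% CO2 and 75.3 CPM at 5% CO2). BCL2, with 11765 exon bases, was in place 2 by CPM in every group.

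Summed by role on the same length-scaled level, survival and BH3-only transcripts were both higher with LPS. On that scale their ratio stayed within the spread of the libraries. The 4 survival genes summed to 262 to 310 CPM per kb at 10% CO2 with LPS, against 102 to 126 at 10% CO2, and to 261 to 314 at 5% CO2 with LPS, against 117 to 133 at 5% CO2. The 4 BH3-only genes summed to 64.4 to 83.8 CPM per kb at 10% CO2 with LPS, against 27.1 to 30.6 at 10% CO2, and to 62.7 to 68.4 at 5% CO2 with LPS, against 29.4 to 31.1 at 5% CO2. The ratio of survival to BH3-only sums was 3.97 ± 0.74 at 10% CO2 with LPS, against 3.88 ± 0.20 at 10% CO2, and 4.33 ± 0.58 at 5% CO2 with LPS, against 4.14 ± 0.21 at 5% CO2 (SD, n = 3). With BCL2A1 left out of the survival sum the ratio was 2.79 ± 0.54 at 10% CO2 with LPS, against 3.81 ± 0.20 at 10% CO2, and 3.27 ± 0.41 at 5% CO2 with LPS, against 4.05 ± 0.19 at 5% CO2. The sum of BAX and BAK1 was 43.8 to 47.8 CPM per kb at 10% CO2 with LPS, against 53.9 to 66.3 at 10% CO2, so that the ratio of survival to effector sums was 6.25 ± 0.26 and 1.90 ± 0.39 (SD, n = 3). Without division by length the survival sum averaged 1053 CPM at 10% CO2 with LPS, against 558 CPM at 10% CO2. The BH3-only sum averaged 259 CPM, against 92.9 CPM, in the same groups. At 5% CO2 the survival sum averaged 1078 CPM with LPS, against 615 CPM without, and the BH3-only sum 223 CPM, against 106 CPM. There the BH3-only mean rose by the larger factor at both CO2 levels. The steady ratio thus depends on the scale. These sums weigh each mRNA alike, say nothing of protein, and were given no test because the members were chosen.

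Per kb, BCL2A1 made up 27.4 to 32.0% of the survival sum at 10% CO2 with LPS, against 1.77 to 2.34% at 10% CO2, and 20.7 to 27.2% at 5% CO2 with LPS, against 1.75 to 2.29% at 5% CO2. MCL1 made up 62.5% ± 2.20 at 10% CO2 with LPS, against 80.1% ± 0.767 at 10% CO2 (SD, n = 3). Its share was 68.5% ± 3.20 at 5% CO2 with LPS, against 81.7% ± 1.05 at 5% CO2. The shares depend on the scale. Without division by gene length BCL2A1, which has 1089 exon bases, made up 8.85% at 10% CO2 with LPS, against 0.441% at 10% CO2. The direction for MCL1 turns on that scale, with 74.9% at 10% CO2 with LPS, against 69.9% at 10% CO2, and 78.4% at 5% CO2 with LPS, against 72.4% at 5% CO2. Between CO2 levels with LPS the BCL2A1 shares did not overlap per kb (27.4 to 32.0% at 10% CO2, against 20.7 to 27.2% at 5% CO2) and did without division by length (7.984 to 9.850% at 10% CO2, against 5.633 to 7.995% at 5% CO2). Per kb, PMAIP1 was the largest part of the BH3-only sum in every group, with 65.9% ± 0.918 at 10% CO2 with LPS, against 68.3% ± 3.32 at 10% CO2. Without division by length BCL2L11 had the larger mean share at 10% CO2 with LPS, 43.1% against 42.0% for PMAIP1.

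**Figure D4:**
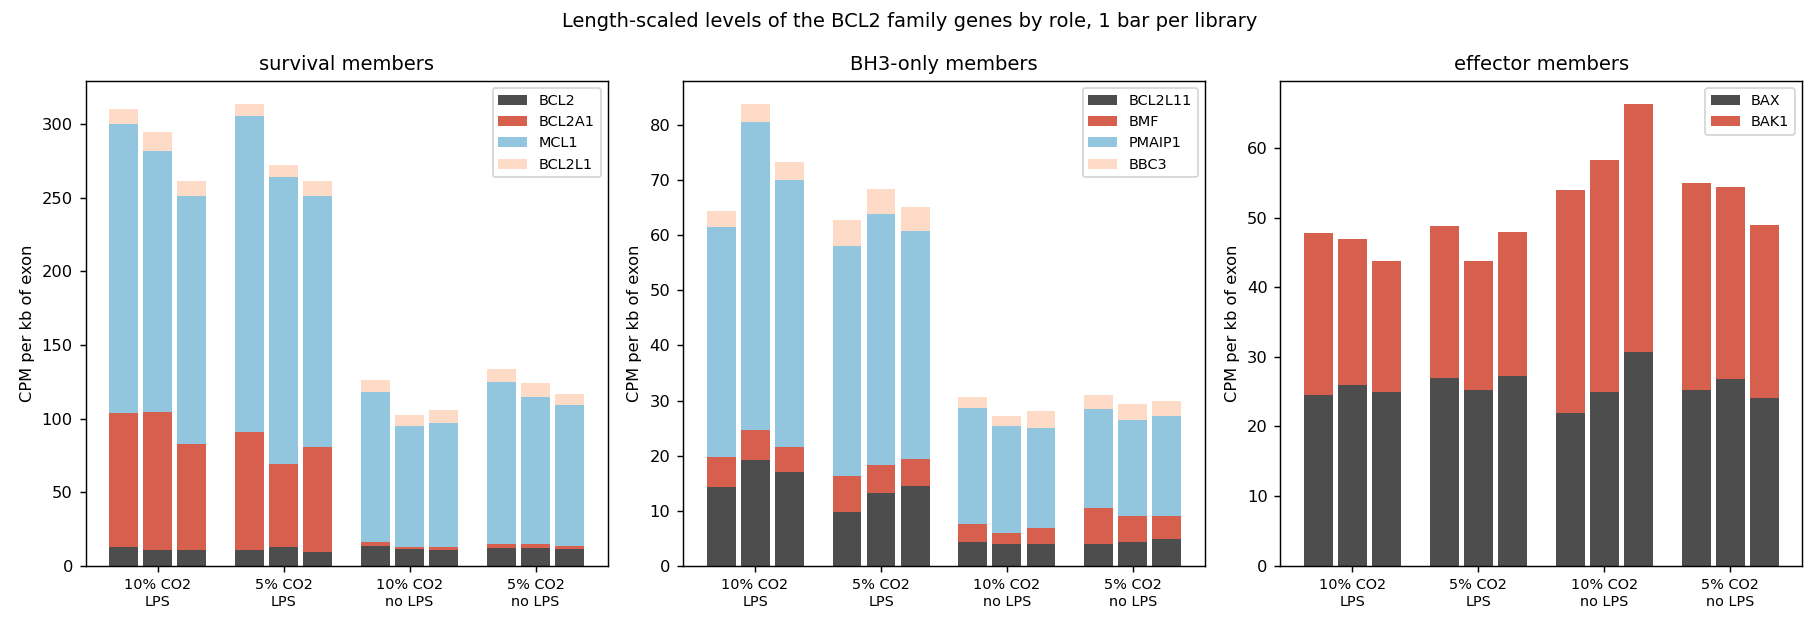
Length-scaled levels (CPM per kb of exon) stacked by gene for the survival, BH3-only and effector members, with 1 bar per library in groups of 3. The survival bars reach 261 to 314 with LPS and 102 to 133 without, the BH3-only bars 62.7 to 83.8 and 27.1 to 31.1, and the effector bars with LPS are the lowest of their panel at 43.7 to 48.7.

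LPS also raised some of the other BCL2 relatives. Of 14 relatives listed, 10 passed the filter, and the same 3 rose at both CO2 levels. Of all genes 35.2% were called at 10% CO2 (16.6% higher) and 24.9% at 5% CO2 (11.8% higher). DESeq2 also called 3 relatives, and 3 were under an unadjusted p of 0.05. BID, which is cleaved by caspase 8 and links death receptors to mitochondria, rose by 0.84 ± 0.09 at 10% CO2 (adjusted p = 1.09e-06) and 0.62 ± 0.09 at 5% CO2 (adjusted p = 6.51e-05). BCL2L13, a mitochondrial relative with roles in mitophagy, rose by 0.44 ± 0.08 (adjusted p = 0.000451) and 0.36 ± 0.08 (adjusted p = 0.00385). BECN1, an autophagy protein with a BH3 domain, rose by 0.31 ± 0.08 at 10% CO2 (adjusted p = 0.00488) and by 0.22 ± 0.08 at 5% CO2 (adjusted p = 0.0457), where the call was lost without any of 9 libraries (adjusted p = 0.0514 to 0.137). Those 9 were every library except replicates 1 and 3 of 10% CO2 and replicate 2 of 10% CO2 with LPS. It was also lost with no filter on low counts (0.182), in a fit of the compared groups alone (0.0543) and after the GC correction (0.0858). The other 7 tested relatives, BCL2L2, BOK, BAD, BIK, BCL2L12, BNIP3 and BNIP3L, had changes from −0.28 to 0.21. Of the 4 that did not pass the filter, BCL2L14 had 7 to 12 reads at 10% CO2 with LPS and 3 to 8 reads at 5% CO2 with LPS, against 0 in all 6 libraries without LPS. BCL2L10, HRK and BCL2L15 had at most 7 reads in any library.

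LPS also changed some inhibitors of apoptosis and some death receptor genes, in comparisons where 35.2% (10% CO2) and 24.9% (5% CO2) of all genes were called. BIRC3, the gene for the ubiquitin ligase cIAP2, rose by 5.41 ± 0.15 at 10% CO2 (adjusted p = 1.15e-15) and 5.45 ± 0.16 at 5% CO2 (adjusted p = 2.33e-15), and BIRC2, for cIAP1, by 0.90 ± 0.09 (adjusted p = 3.74e-07) and 0.73 ± 0.09 (adjusted p = 7.46e-06). These were the 2 of 6 inhibitors called at each CO2 level. Of 9 death receptor genes 3 rose and 4 fell at 10% CO2, and 2 rose and 4 fell at 5% CO2. CFLAR, for the caspase 8 inhibitor FLIP, rose by 1.89 ± 0.10 (adjusted p = 1.88e-11) and 1.38 ± 0.10 (adjusted p = 2.35e-09). The adaptor gene FADD had −1.22 ± 0.12 and −1.32 ± 0.12, CASP8 −0.55 ± 0.09 and −0.58 ± 0.09, and the TNF receptor gene TNFRSF1A −1.24 ± 0.09 and −1.13 ± 0.09 at 10% and 5% CO2 (adjusted p from 4.58e-09 to 0.000119). The other calls, named after their values were seen, were TNFRSF10B, a TRAIL receptor gene (0.85 ± 0.16 and 0.97 ± 0.16), TNFRSF10A, another (−0.82 ± 0.14 and −0.71 ± 0.14), and at 10% CO2 CASP10 (0.43 ± 0.13), which was lost without replicate 2 or 3 of 10% CO2 with LPS (0.0592 and 0.0621).

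Of 14 genes of the mitochondrial death machinery 6 rose and 2 fell with LPS at 10% CO2, and 5 rose and 1 fell at 5% CO2. Over all genes 16.6% rose and 18.6% fell at 10% CO2, and 11.8% rose and 13.1% fell at 5% CO2. CYCS, for cytochrome c, rose by 0.80 ± 0.08 and 0.71 ± 0.08, DIABLO, whose protein SMAC blocks inhibitors of apoptosis, by 0.76 ± 0.12 and 0.71 ± 0.12, and the outer membrane channel gene VDAC2 by 0.36 ± 0.08 and 0.32 ± 0.08 (adjusted p from 4.84e-07 to 0.00545). APAF1, which forms the apoptosome, was singled out after its values were seen because it fell at both levels, with −0.46 ± 0.13 at 10% CO2 (adjusted p = 0.00883) and −0.45 ± 0.13 at 5% CO2 (adjusted p = 0.0134). Its call at 5% CO2 was lost without replicate 3 of 5% CO2 or replicate 1 of 5% CO2 with LPS (−0.29, adjusted p = 0.108, and −0.35, adjusted p = 0.0797). VDAC1 also rose at both levels (0.30 ± 0.07 and 0.24 ± 0.07), and at 10% CO2 MTCH2 rose (0.28 ± 0.09) and CASP9 fell (−0.49 ± 0.14), named after their values were seen. Calls were lost for VDAC1 at 5% CO2 without replicate 1 or 2 of 5% CO2 or replicate 3 of 5% CO2 with LPS (0.0687 to 0.0991) and with no filter (0.0666). MTCH2 lost its call without replicate 1 of 10% CO2 or replicate 2 of 10% CO2 with LPS (0.0559 and 0.0662), with no filter (0.0928) and after the GC correction (0.168), and CASP9 without replicate 3 of 10% CO2 (0.0851). Of 15 regulators of the members, 8 rose and 4 fell at 10% CO2, and 6 rose and 2 fell at 5% CO2. The NF-κB subunit genes NFKB1 and REL rose by 3.71 ± 0.12 and 3.59 ± 0.15 at 10% CO2 (adjusted p = 4.6e-14 and 2.63e-12) and by 3.20 ± 0.12 and 2.88 ± 0.14 at 5% CO2 (adjusted p = 3.81e-13 and 4.53e-11). FOXO3, a transcription factor gene, rose by 0.56 ± 0.09 at 10% CO2 (adjusted p = 0.000111). It was also called at 5% CO2, where its change ran from 0.38 to 0.53 with 1 library left out (adjusted p = 0.00061 to 0.0071). ATF4, a stress factor gene, rose by 0.42 ± 0.07 (adjusted p = 0.000171) at 10% CO2 and 0.43 ± 0.07 (adjusted p = 0.000186) at 5% CO2. Those that fell, named after their values were seen, were FOXO1 (−0.70 ± 0.19 and −0.85 ± 0.19) and BTRC (−0.46 ± 0.14 and −0.40 ± 0.14) at 10% and 5% CO2, and TP73 (−0.62 ± 0.17) and DDIT3 (−0.57 ± 0.13) at 10% CO2. BTRC lost its call without 3 libraries at 10% CO2, replicate 1 of 10% CO2 and replicates 2 and 3 of 10% CO2 with LPS (0.0564 to 0.0915). At 5% CO2 it lost it without any of 8, all but replicate 1 of each of 5% CO2 with LPS, 10% CO2 and 10% CO2 with LPS and replicate 3 of 10% CO2 (0.0515 to 0.204), with no filter (0.0864), with DESeq2 size factors (0.0583) and by DESeq2 (0.0537). TP73 lost its call without replicate 3 of 10% CO2 or replicate 2 of 10% CO2 with LPS (0.0644 and 0.0537).

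CO2 changed some of these surrounding genes. With LPS, where 8.75% of all genes were called, 2 of the 10 tested relatives fell at 10% CO2: BIK, a BH3-only gene, with −0.64 ± 0.14 (adjusted p = 0.0115), and BNIP3L, a mitophagy receptor gene, with −0.49 ± 0.12 (adjusted p = 0.0195). Both lost their call without replicate 2 of 10% CO2 with LPS (adjusted p = 0.0851 and 0.143) or replicate 2 of 5% CO2 with LPS (0.0624 and 0.0766), and BNIP3L also without replicate 1 of the same group (0.0685). Of 15 regulators 1 rose, NFKB1 by 0.41 ± 0.11 (adjusted p = 0.0301), and 2 fell, among them TP73 with −0.59 ± 0.18 (adjusted p = 0.0450). NFKB1 lost its call without replicate 1 or 2 of 10% CO2 with LPS (0.103 and 0.106), without replicate 2 of 5% CO2 with LPS (0.130) and in a fit of the compared groups alone (0.0984). TP73 lost its call without any of 8 libraries, all but replicates 2 and 3 of 5% CO2, replicate 3 of 5% CO2 with LPS and replicate 3 of 10% CO2 (0.0541 to 0.211), and with GC content corrected, without (0.0674) or with (0.0692) the block. CYCS rose by 0.29 ± 0.08 (adjusted p = 0.0368) as 1 of 14 genes of the death machinery, and lost its call with GC content corrected (0.0535), with no filter on low counts (0.0561) and without replicate 1 or 2 of either LPS group (0.105 to 0.151). Of the inhibitors of apoptosis and the death receptor genes edgeR called 0 of 6 and 0 of 9, with 2 and 1 under an unadjusted p of 0.05 and 0 and 1 called by DESeq2.

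Without LPS, where 1.46% of all genes were called, CFLAR was the single gene of these lists that edgeR called, with −0.40 ± 0.10 at 10% CO2 (adjusted p = 0.0480), and it lost the call without any library but replicate 1 of 10% CO2 (adjusted p = 0.0545 to 0.286), with DESeq2 size factors (0.0501) and in a fit of the compared groups alone (0.130). The relatives, the death machinery, the inhibitors and the regulators had 0 calls in edgeR, with 3, 4, 0 and 4 genes under an unadjusted p of 0.05 and 2, 1, 0 and 0 called by DESeq2. Averaged over LPS, with 16.8% of all genes called, 3 of 10 relatives fell, BNIP3L (−0.47 ± 0.09, adjusted p = 0.00163), BIK (−0.46 ± 0.10, adjusted p = 0.00503) and BECN1 (−0.21 ± 0.06, adjusted p = 0.0166). BECN1 lost that call without replicate 2 of 10% CO2 with LPS (0.0585) and with no filter on low counts (0.0665). In the death machinery 4 of 14 rose, HTRA2 (0.29 ± 0.07), CYCS (0.25 ± 0.06), MTCH2 (0.21 ± 0.06) and AIFM1 (0.19 ± 0.06), with adjusted p from 0.00797 to 0.0400. MTCH2 lost its call without 5 libraries (0.0665 to 0.0913), namely replicate 1 of 5% CO2, replicates 1 and 2 of 5% CO2 with LPS and replicate 2 of each group at 10% CO2, with no filter (0.0617) and with GC content corrected (0.0668). AIFM1 lost its call without 6 libraries (0.0713 to 0.114), namely replicates 1 and 2 of 5% CO2, replicate 1 of 5% CO2 with LPS, replicate 2 of 10% CO2 and replicates 2 and 3 of 10% CO2 with LPS, and with no filter (0.123). Among the regulators 3 of 15 fell, with TP73 at −0.51 ± 0.12 (adjusted p = 0.00953) and RELA at −0.27 ± 0.07 (adjusted p = 0.00995). TNFRSF1A was the 1 death receptor gene called (−0.24 ± 0.07, adjusted p = 0.0190), a call lost without replicate 1 of 5% CO2, replicate 2 of 5% CO2 with LPS or replicate 2 of either group at 10% CO2 (0.0572 to 0.0789). Of the 6 inhibitors of apoptosis edgeR called 0 and DESeq2 0 in the average, with 1 under an unadjusted p of 0.05.

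The genes whose log2 CPM followed each member most closely over the 12 libraries, by Pearson correlation among 10705 genes with a symbol and a mean of at least 5 CPM, are given as a description. The libraries share 4 groups, so a gene that responds to LPS follows any other that does. BCL2A1 was followed by IRAK2, CXCL1 and PLEK (r = 0.999, 0.998 and 0.998), and MCL1 by CCNL1, ZEB2 and EPM2AIP1 (r = 0.992, 0.990 and 0.990). BCL2L11 was followed by KLF5, CCNE2 and CLEC2D (r = 0.994, 0.991 and 0.989) and PMAIP1 by BTG3, NCOA7 and RCN1 (r = 0.990, 0.988 and 0.988). BMF, whose pattern was a low level at 10% CO2 without LPS, had BCAR3 closest (r = 0.968). BAK1, the member that fell with LPS, had LSM10 closest (r = 0.974), BCL2L1 had NAB2 (r = 0.946), BBC3 had DLST (r = 0.946), BAX had ATP5MC2 (r = 0.932) and BCL2 had C6orf120 (r = 0.869).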

How the data were processed

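The deposited files give, for every library in a table of its own, raw read counts by Ensembl gene, and per the file headers also the exon length of each gene in bases. Per the submitters' processing notes the tools were Trimmomatic 0.36, STAR 2.5.2b and featureCounts of Subread 1.5.2, on GRCh38. The sources used here give neither strand setting, nor annotation release, nor the treatment of multi-mapping reads. Groups and replicate numbers came from the sample titles. Counts of libraries within a group were further apart than counting error allows (chi-square over its degrees of freedom, 8.05 to 26.2). The pair furthest apart was replicates 1 and 3 of 10% CO2. Such a spread cannot show whether the libraries came from separate cultures. All 12 were kept.

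From these counts, edgeR 4.0.16 in R 4.3.3 was run with filterByExpr by group, TMM scaling and the robust quasi-likelihood F test, in 1 model with 4 group means, and was tested on simulated data. Benjamini-Hochberg adjustment was over all 16402 genes. CPM was divided by exon length in kb for levels between genes. SE is the log2 change divided by the square root of F. Alternatives were DESeq2 1.42.0 (its test or its size factors), no filter, only the compared groups, a GC correction (a smooth per-library trend on exon GC), a replicate block, and leaving out each library. Same-numbered libraries deviated together for LPS at 10% CO2 (correlations 0.213 to 0.445), where the block changed no member's call. Symbols came from a reference table that paired 40907 of 57500 identifiers. The hg38 reference matched the files' exon lengths for all 57447 genes placed on it, and the promoter entries of the 9 members equalled its bases.

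The members and gene lists were chosen with earlier results of these data known. All 10 members are named in every comparison, called list genes up to 4 per list by p, and per member the 3 most alike genes, or the first of them. Some genes of the lists are counted in them and not reported here by name. A count of 3, the limit that a count of 0 allows, was 0.132 to 0.179 CPM and covers counting error only.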

Additional observations from a re-analysis of the deposited data

How the results depend on the processing

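The LPS calls of the members were the same in number or nearly so under every setting: 6 at 5% CO2 throughout, and 7 to 8 at 10% CO2. The CO2 counts were less steady. Without LPS, where 1 member was called, 0 were with only the compared groups, 2 after the GC correction and 3 with the replicate block and the GC correction, and 0 to 1 with 1 library left out. With LPS, also 1, the count was 2 with no filter, 3 by DESeq2, 2 with the block, 3 with the block and GC correction, and 0 to 2 with 1 library left out. The average had 2, both lower. It had 3 with the block (all lower), 3 after the GC correction (2 higher and 1 lower), 5 with both (2 higher and 3 lower), and 0 to 2 with 1 library left out. The interaction had 0, or 1 with no filter.

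Over all genes the CO2 call without LPS (240) was 572 with no filter, 669 by DESeq2, 71 with only the compared groups, 699 with the replicate block, 882 after the GC correction, 2015 with both, and 0 (without replicate 2 of 10% CO2) to 511 (without replicate 1 of 10% CO2) with 1 library left out. With LPS (1435) it was 3008 with both and 271 (without replicate 2 of 10% CO2 with LPS) to 1804 with 1 library left out. The average (2748) was 4693 with both and 1664 (without replicate 2 of 10% CO2) to 3005 with 1 library left out, and the interaction (4) was 108, 1, 55, 11 and 31 with no filter, DESeq2 size factors, DESeq2, the block and both, and 1 (without replicate 1 of 5% CO2) to 37 (without replicate 3 of 5% CO2 with LPS) with 1 library left out.

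In the other comparisons the correlations of same-numbered and differently numbered libraries overlapped. Same-numbered correlations were −0.359 to 0.439 for CO2 without LPS, against −0.604 to 0.521 for different numbers. For CO2 with LPS they were −0.189 to 0.560, against −0.450 to 0.511. For LPS at 5% CO2 they were 0.0891 to 0.584, against −0.444 to 0.156. Replicate 1 libraries correlated positively between all groups (0.250 to 0.584). The reported model has no replicate term, and the block was run only as an alternative. The block alone gained BBC3 with LPS (adjusted p = 0.0363) and MCL1 in the average (−0.15, adjusted p = 0.0321), and with the GC correction also MCL1 without LPS (−0.20, adjusted p = 0.0306).

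Reversed signs were seen only in changes that had not been called. After the GC correction, and with the block added, BAX had 0.068 and 0.067 (average), 0.081 and 0.081 (CO2 with LPS), 0.025 and 0.027 (interaction) and 0.15 and 0.15 (LPS at 10% CO2). BCL2 had −0.012 and −0.011 (average), −0.0098 and −0.0064 (CO2 with LPS) and −0.014 and −0.016 (CO2 without LPS). BMF had 0.0052 and 0.016 (CO2 with LPS) and PMAIP1 −0.039 and −0.044 (interaction). BCL2 without LPS was also −0.00015 with DESeq2 size factors, −0.00016 by DESeq2 and −0.0074 with the block. With 1 library left out, the reversed results ran as follows. BAK1 with LPS ran from −0.024 to 0.12. BAX ran from −0.11 to 0.13 (CO2 without LPS), −0.094 to 0.030 (average), −0.20 to 0.042 (interaction) and −0.14 to 0.10 (LPS at 10% CO2). BCL2 ran from −0.12 to 0.081 (CO2 without LPS), −0.032 to 0.18 (CO2 with LPS), −0.029 to 0.098 (average), −0.033 to 0.18 (interaction) and −0.13 to 0.069 (LPS at 10% CO2). BCL2A1 ran from −0.016 to 0.12 (average), BCL2L1 from −0.14 to 0.011 (CO2 without LPS) and −0.050 to 0.13 (LPS at 5% CO2), BMF from −0.18 to 0.039 (CO2 with LPS) and −0.044 to 0.32 (LPS at 5% CO2), BBC3 from −0.35 to 0.10 and PMAIP1 from −0.060 to 0.14 (both interaction). The cause of these shifts was not tested.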
